A study of Rattus norvegicus with 18 samples.

Results

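The chemokine system of rat liver was followed through 18 weeks of diethylnitrosamine, a nitrosamine that hepatocytes activate to a DNA-alkylating agent and that is given to rats to produce liver tumours. Its members were taken by symbol alone, as every probe set of the Affymetrix Rat Genome 230 2.0 array whose deposited gene symbol is Ccl, Cxcl, Cx3cl, Xcl, Ccr, Cxcr, Cx3cr or Xcr followed by a number. The rule used no measured value. It found 51 of 31099 probe sets, or of 31042 without the 57 controls, for 40 genes. Of these, 37 probe sets of 28 genes were ligands and 14 probe sets of 12 genes were receptors. The animals were Sprague-Dawley rats, described as a model of hepatic cancer, and RNA was taken from the middle of the right lobe. Liver was taken without treatment at 0 h (normal liver) and after 5, 8, 12, 16 or 18 weeks on diethylnitrosamine, with 3 arrays in each of the 6 groups and 18 arrays in all. By the labels, a group's 3 arrays are technical replicates, so the p values here measure only how arrays of one group spread, which may hold no difference between animals. All samples carry a label age of 12 weeks, untreated liver of later ages is not part of the design, and the sources used here state neither dose nor sex, so weeks on treatment and age cannot be told apart.

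Chemokines are small secreted proteins that steer leukocytes along gradients, and they act through receptors with 7 membrane-spanning segments coupled to inhibitory G proteins. They are named by the spacing of their first cysteines as CC, CXC, CX3C and XC ligands, and CXC ligands that carry the residues ELR before those cysteines draw neutrophils, while those without ELR mostly draw lymphocytes. In liver they are made by Kupffer cells, sinusoidal endothelium, stellate cells, bile duct cells and hepatocytes, and they govern which blood leukocytes settle there after injury. The arrays measured RNA of whole tissue, so more cells of a type and more RNA per cell cannot be told apart in any result here.

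The unit throughout is the array signal, a linear intensity. The deposited table has no detection calls, so a group was described as near background where its mean signal lay under 94.4, the level below which 40 percent of all probe sets fall on average. Of the 51 probe sets, 26 had a mean above that level in every group, 18 lay near background in some groups and 7 in all 6 groups. All 18 arrays lay under the level for 5 probe sets, which belong to Ccl22 (1370620_at), Ccr3, Ccr4 and Cxcl3 (1388033_at and 1393182_at). Ccl28 and Ccr10 were near background in all 6 group means but not in every single array. Of the 18, 14 were near background in normal liver and above it at 1 time or more. Levels are compared within a probe set only, since probes differ in how brightly they report. Changes are given on the scale of log2(signal + 16) ± SE (3 arrays in each group), relative to normal liver except where another time is named, and a change was called with a limma adjusted p under 0.05 and a fold of at least 2. Where a group lay near background, a change rests in part on the added 16 and is no exact fold.

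Chemokine genes moved in both directions, and more of them were higher the longer treatment went on, up to 16 weeks. At 5 weeks 4 probe sets were called higher and 3 lower, or 7.84% and 5.88% of the 51, against 4.51% and 2.68% of all probe sets. At 8 weeks 5 were higher and 6 lower (9.8% and 11.8%), against 6.39% and 4.65% of all probe sets. At 12 weeks 15 were higher and 4 lower (29.4% and 7.84%), against 11.1% and 3.24% of all. At 16 weeks 22 were higher and 5 lower (43.1% and 9.8%), against 14.3% and 4.01% of all. At 18 weeks 13 were higher and 6 lower (25.5% and 11.8%), against 7.84% and 3.92% of all. The median change of the 51 was 0.70 at 16 weeks, where that of all probe sets was 0.19. In either direction 7 were called at 5 weeks (13.7%, against 7.19% of all), 11 at 8 weeks (21.6%, against 11%), 19 at 12 weeks (37.3%, against 14.4%), 27 at 16 weeks (52.9%, against 18.3%) and 19 at 18 weeks (37.3%, against 11.8%). Over these times and the 4 steps between them, 33 were called at least once (64.7%, against 30.1% of all) and 18 never. At 16 weeks the 3 arrays lay above all 3 normal arrays for 31 of the 51 (60.8%) and for 35% of all probe sets. The highest group mean fell at 16 weeks for 30 of the 51 probe sets (58.8%) and for 27.2% of all probe sets.

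**Figure D1:**
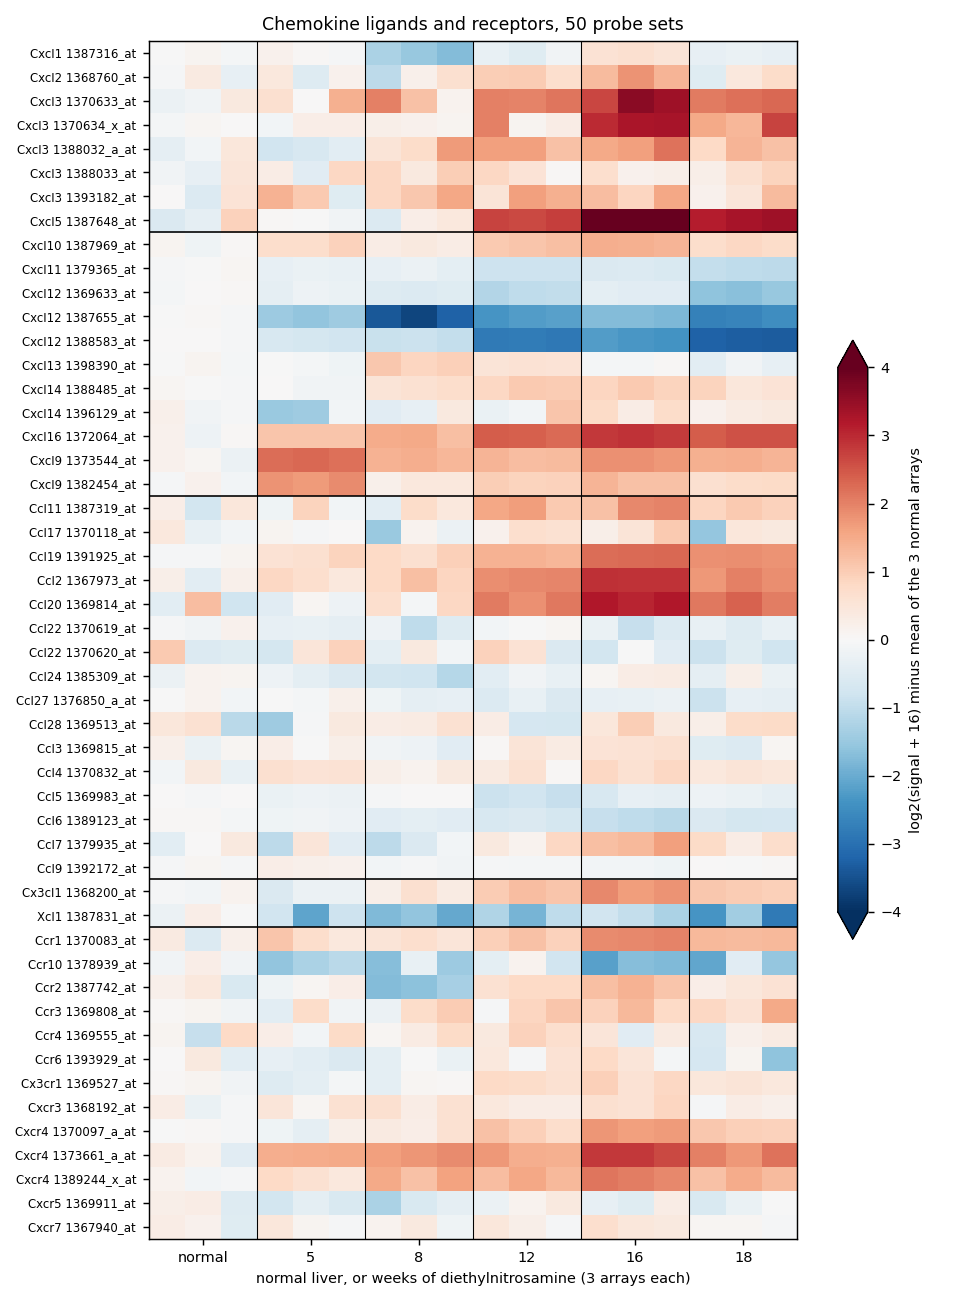
Change of 50 of the 51 chemokine and receptor probe sets, one per line, in each of the 18 arrays, one per column, as log2(signal + 16) minus the mean of the 3 normal arrays; colours saturate at 4 in either direction. Cxcl5, Ccl20, Ccl2, Cxcl16 and Cxcl3 at 1370633_at, 1370634_x_at and 1388032_a_at are deepest red at 16 weeks. Cxcl12 is blue at its 3 probe sets.

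The number called depended on how the arrays were scaled. The median signal of an array ranged from 123 to 187 and its group mean was highest at 16 weeks, with 180.0 ± 8.49 there and 125 ± 3.78 in normal liver (SD, n = 3). The summed signal of an array ranged from 2.23e+07 to 2.64e+07. Centring each array on its median lowered every change at 5 weeks by 0.10, at 8 weeks by 0.11, at 12 weeks by 0.38, at 16 weeks by 0.47 and at 18 weeks by 0.19, and raised every change between 16 and 18 weeks by 0.28. With centring, 4 were higher and 4 lower at 5 weeks, 4 and 8 at 8 weeks, 8 and 7 at 12 weeks, 16 and 7 at 16 weeks and 11 and 6 at 18 weeks. Of all 31042 probe sets, 1072 were then higher and 1111 lower at 5 weeks and 1555 and 1819 at 8 weeks. At 12 weeks these were 1686 and 2591, at 16 weeks 2109 and 3680 and at 18 weeks 1768 and 2027. Of the 27 calls at 16 weeks, 21 were kept with centring and 22 with quantile normalization, and of the 19 at 12 weeks, 12 and 14 were kept. The share of higher calls among all probe sets called at 16 weeks was 78.1% as deposited, 36.4% with centring and 57.3% with quantile normalization. No called change against normal liver turned its sign under either scaling. Centring could not turn one, since it moved changes by less than the log2 change of 1 that a call needs.

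**Figure D2:**
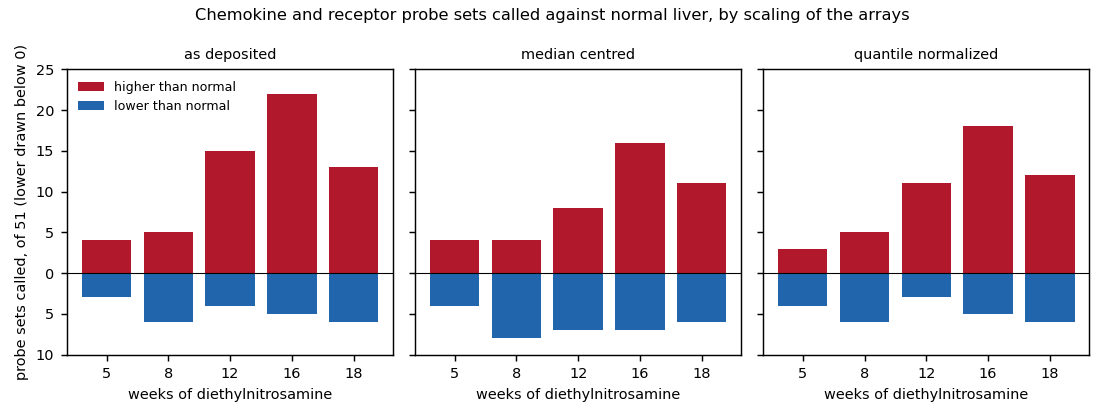
Number of the 51 probe sets called against normal liver at each time, higher above 0 and lower below it, with the arrays as deposited, centred on their medians, or quantile normalized. The tallest higher bar is at 16 weeks in each panel, with 22, 16 and 18 probe sets.

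The ELR ligands, which draw neutrophils through Cxcr2, held the largest increases. Cxcl5 (1387648_at), named Cxcl6 in the current RefSeq annotation, had signals of 5.46, 9.31 and 45.3 in normal liver, 17.4, 16.1 and 13.0 at 5 weeks and 6.06, 22.7 and 27.5 at 8 weeks. They were 195, 183 and 204 at 12 weeks, 649, 623 and 559.8 at 16 weeks and 269.7, 299 and 321 at 18 weeks. Every array up to 8 weeks lay under the background level and every array from 12 weeks on lay above it, with no overlap. The change was 2.71 ± 0.32 at 12 weeks, 4.28 ± 0.32 at 16 weeks (adjusted p = 6.13e-10) and 3.28 ± 0.32 at 18 weeks, and -0.03 and 0.05 at 5 and 8 weeks, neither called.

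Cxcl3, a close relative of Cxcl1 and Cxcl2, has 5 probe sets that differ in time course. The one with the largest change, 1370633_at, had signals of 10.2, 11.9 and 24.6 in normal liver, 32.6, 15.2 and 66.9 at 5 weeks and 109, 54.0 and 18.2 at 8 weeks. They were 109.7, 108 and 121 at 12 weeks, 181, 362 and 309 at 16 weeks and 114, 127 and 137 at 18 weeks. The 3 arrays at 16 weeks lay above all the others, while the 8 week arrays spread across the background level. Its change was 2.05 ± 0.40, 3.22 ± 0.40 and 2.19 ± 0.40 at 12, 16 and 18 weeks, all called. The change of 1.11 called at 8 weeks rested on single arrays, with 0.66 without 8 week replicate 1, 1.08 without 8 week replicate 2, 0.99 without normal replicate 1 and 1.04 without normal replicate 2, none of them called.

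A second probe set of Cxcl3, 1370634_x_at, carries the suffix that Affymetrix gives to probes that may also bind related transcripts. It had signals of 119, 19.8 and 24.8 at 12 weeks, 248, 303 and 311 at 16 weeks and 78.3, 67.7 and 199 at 18 weeks, against 15.0, 18.6 and 17.6 in normal liver. One 12 week array stood far above its other two, and the 16 week arrays lay above all the rest. It was called at 16 weeks (3.19 ± 0.41) and 18 weeks (1.85 ± 0.41). The probe set 1388032_a_at was called at 12, 16 and 18 weeks with 1.48, 1.78 and 1.11. Its 18 week call was lost without normal replicate 1 (0.93) and without 18 week replicate 2 (0.98). With 64 added in place of 16 its values at 12 and 18 weeks were 0.86 and 0.61, neither called. The 2 probe sets under the background level in all arrays were uncertain, since 1388033_at was not called at any time and the calls of 1393182_at at 12 and 16 weeks (1.19 and 1.21) ended with quantile normalization (0.89 and 0.88) and without normal replicate 2 (0.92 and 0.93). They also ended without normal replicate 1, with adjusted p values of 0.0775 and 0.0684. Leaving out 12 week replicate 2 or 3 gave 0.97 or 1.08 at 12 weeks, and leaving out 16 week replicate 1 or 3 gave 1.20 or 1.05 at 16 weeks, none of them called.

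Cxcl1 (1387316_at), a neutrophil attractant of the GRO group, followed another course. Its signals were 868, 928 and 813 in normal liver, 987, 889.9 and 841 at 5 weeks and 353, 292 and 249.9 at 8 weeks. They were 707, 622 and 793 at 12 weeks, 1318, 1371 and 1239 at 16 weeks and 685, 713 and 692 at 18 weeks. The 8 week arrays lay below all other arrays and the 16 week arrays above all others. It was called lower at 8 weeks (-1.51 ± 0.10, adjusted p = 2.29e-10), and its value of 0.58 ± 0.10 at 16 weeks had an adjusted p of 7.5e-05 but missed the fold threshold. Centring lowered every change at 16 weeks by 0.47, which is most of that 16 week value of Cxcl1. Cxcl2 (1368760_at), a macrophage product that draws neutrophils, was near background in every group except 16 weeks. Its signals were 114, 173 and 123 at 16 weeks, against 36.8, 53.9 and 27.0 in normal liver, a called change of 1.48 ± 0.40 that fell under the fold threshold when 64 was added in place of 16 (0.96). Cross-hybridisation among these closely related ligands was not tested.

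The receptors of the ELR ligands carry older symbols on this array, Il8ra (Cxcr1) and Il8rb (Cxcr2), and so fall outside the rule. Their group means stayed near background in all 6 groups. Il8rb had mean signals of 57.4 ± 22.1 at 12 weeks and 52.5 ± 10 at 16 weeks, against 17.1 ± 10.6 in normal liver (SD, n = 3), with called changes of 1.16 ± 0.35 and 1.10 ± 0.35. Il8ra was called lower at 8 weeks alone (-1.10 ± 0.34). Of 10 neutrophil markers listed, 6 had a probe set, of which 3 were near background in normal liver and 2 at 16 weeks, and 2 of these 6 were called higher at 16 weeks, Il8rb itself and Csf3r (1.61), the receptor of granulocyte colony-stimulating factor (33.3%, against 14.3% of all probe sets). The summed signal of the 6, mostly from the granule proteins S100a8 and S100a9, ranged over 4442 to 4677 in normal liver, 6014 to 6104 at 5 weeks, 2512 to 2617 at 8 weeks, 2744 to 2879 at 12 weeks, 4930 to 4978 at 16 weeks and 4118 to 4484 at 18 weeks. At 8 weeks S100a8 was called lower (-1.02). The part of neutrophils in the ligand changes was not tested.

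**Figure D3:**
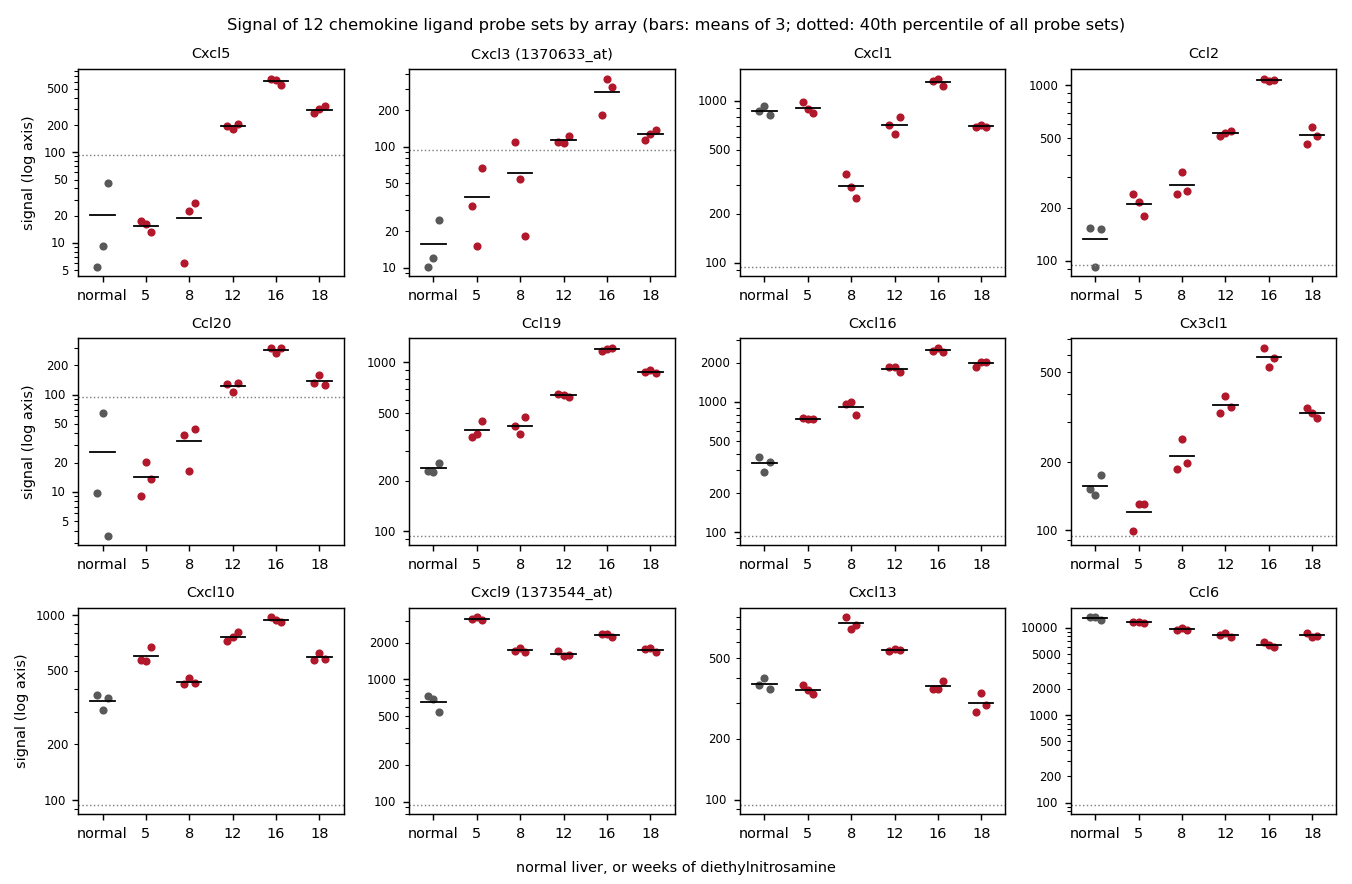
Signal of 12 ligand probe sets in each array (points, log axis), with the mean of each group of 3 arrays (bars) and the background level of 94.4 (dotted), in normal liver and after 5 to 18 weeks. Cxcl5, Cxcl3, Ccl20, Ccl2, Ccl19, Cxcl16 and Cx3cl1 have their highest mean at 16 weeks, Cxcl9 at 5 weeks and Cxcl13 at 8 weeks, and Ccl6 has its lowest at 16 weeks.

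Promoters were read for 30 of the 40 genes, from the RefSeq table for the build GRCr8, as 250 bases before to 50 bases after each start of transcription. Of 14 patterns searched on both strands, the NF-kB consensus lay in 9 of the 30 windows and in 7.51% of all 33469 windows of the same length. The 9 genes were Ccl20, Ccl7, Ccl9, Ccr3, Cxcl1, Cxcl10, Cxcl11, Cxcl2 and Cxcl5. Narrower or wider spellings of that site, of which 5 were searched before the consensus, lay in 3 to 10 of the 30 windows and in 0.362% to 5.37% of all. The letters TATAAA lay in 33.3% of the member windows and 14.2% of all, the AP-1 pattern TGANTCA in 16.7% and 7.33%, and the STAT pattern TTCNNNGAA in 20.0% and 8.87%. Its narrower form TTCNNGGAA lay in 10% and 4.94%, and an interferon response pattern in 6.67% and 3.92%. The GC box GGGCGG lay in 33.3% and 33.1%. The E box CACGTG lay in 3.33% and 6.42%, and the hypoxia core ACGTG, which the E box contains, in 13.3% and 19.3%. The genes with the NF-kB consensus did not all share a time course. Ccl20, Ccl7, Ccr3, Cxcl10, Cxcl2 and Cxcl5 were called higher at 16 weeks, of which Cxcl5 and Ccl20 were called higher from 12 weeks on. Cxcl1 was called lower at 8 weeks, Cxcl11 was called lower at 18 weeks and Ccl9 was called at no time. A match describes letters in this window and no binding. The windows of 4 ligands that hold the consensus are shown 5′ to 3′ in the direction of transcription, with its letters on either strand in capitals. Each of the 4 had its highest mean at 16 weeks, and their courses differed before then. Matches on opposite strands can overlap and are then counted separately, and the windows hold 2 matches for Cxcl5, 2 for Cxcl1, 1 for Ccl20 and 3 for Cxcl10. They lie at chr14:17596368-17596667 on the minus strand for Cxcl5, chr14:17479272-17479571 on the minus strand for Cxcl1, chr9:91836909-91837208 on the plus strand for Ccl20 and chr14:15988816-15989115 on the plus strand for Cxcl10.
Cxcl5: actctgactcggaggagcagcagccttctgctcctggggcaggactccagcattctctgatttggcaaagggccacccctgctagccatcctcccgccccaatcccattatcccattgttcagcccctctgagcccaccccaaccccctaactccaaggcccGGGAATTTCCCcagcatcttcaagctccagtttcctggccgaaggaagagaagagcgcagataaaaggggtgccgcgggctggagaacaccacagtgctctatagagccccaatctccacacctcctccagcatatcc
Cxcl1: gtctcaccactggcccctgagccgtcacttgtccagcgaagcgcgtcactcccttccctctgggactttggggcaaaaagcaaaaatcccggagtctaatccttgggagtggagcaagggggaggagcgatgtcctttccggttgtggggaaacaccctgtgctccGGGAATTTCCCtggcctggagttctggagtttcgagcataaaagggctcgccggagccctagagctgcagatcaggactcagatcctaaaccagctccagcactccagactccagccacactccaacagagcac
Ccl20: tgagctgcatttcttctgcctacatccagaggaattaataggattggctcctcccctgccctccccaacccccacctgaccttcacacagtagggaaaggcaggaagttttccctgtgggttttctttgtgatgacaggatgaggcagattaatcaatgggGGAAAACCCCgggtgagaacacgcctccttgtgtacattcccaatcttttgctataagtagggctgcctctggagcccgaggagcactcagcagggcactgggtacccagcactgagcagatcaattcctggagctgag
Cxcl10: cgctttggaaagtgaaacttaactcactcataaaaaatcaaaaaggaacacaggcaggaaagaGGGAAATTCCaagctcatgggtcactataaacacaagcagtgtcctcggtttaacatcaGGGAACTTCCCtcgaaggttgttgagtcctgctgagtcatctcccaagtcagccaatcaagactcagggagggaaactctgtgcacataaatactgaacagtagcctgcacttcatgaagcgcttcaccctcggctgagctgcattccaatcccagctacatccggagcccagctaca

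Of the ligands without ELR, Cxcl9, Cxcl10 and Cxcl11 are induced by interferon and draw activated T cells and NK cells through Cxcr3, and they did not move together. Of the ligand probe sets, the 2 of Cxcl9 had the largest increases at 5 weeks. Its probe set 1373544_at had signals of 729, 689.7 and 545 in normal liver, 3137, 3245 and 3049 at 5 weeks and 1716, 1804 and 1665 at 8 weeks. They were 1697, 1566 and 1587 at 12 weeks, 2357, 2352 and 2219 at 16 weeks and 1773, 1794 and 1677 at 18 weeks. Arrays of all 5 times lay above the 3 normal arrays, and the 5 week arrays lay above all others. The change was 2.25 ± 0.07 at 5 weeks (adjusted p = 7.56e-15), then 1.39, 1.29, 1.80 and 1.41 from 8 to 18 weeks, all called, of which that at 12 weeks was 0.91 and no longer called with centred arrays. The second Cxcl9 probe set, 1382454_at, was likewise highest at 5 weeks, with 2637, 2449 and 2786, against 709, 844 and 679 in normal liver. It was called at 5 weeks (1.80 ± 0.08) and 16 weeks (1.23 ± 0.08), the second of which was 0.76 and not called with centred arrays.

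Cxcl10 (1387969_at) had signals of 371, 308 and 358 in normal liver, 569, 569 and 669.8 at 5 weeks and 426, 458 and 428 at 8 weeks. They were 725, 759 and 809 at 12 weeks, 979, 943 and 919 at 16 weeks and 574, 626 and 579 at 18 weeks. All treated arrays lay above the normal arrays, and the 16 week arrays above all others. The change was called at 12 weeks (1.11 ± 0.08) and 16 weeks (1.42 ± 0.08), and with centred arrays neither was called (0.73 and 0.95). Cxcl11 (1379365_at) went the other way. Its signals were 1177, 1122 and 1102 at 18 weeks, against 2239.8, 2253 and 2399 in normal liver, with no overlap. That change, -1.01 ± 0.05, sat at the fold threshold and was not called without normal replicate 3 (-0.98) or without 18 week replicate 3 (-0.99). Their receptor Cxcr3 (1368192_at) was above background in every group, with signals of 160.3 to 374 over the 18 arrays, and was not called in any comparison (largest value 0.70 ± 0.17 at 16 weeks).

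Cxcl16 (1372064_at), a membrane-bound ligand that holds T and NKT cells in liver through Cxcr6, was higher at all 5 times. Its signals were 377, 292 and 344 in normal liver, 749, 740.1 and 735 at 5 weeks and 964, 995 and 789.7 at 8 weeks. They were 1863, 1838 and 1687 at 12 weeks, 2458, 2602 and 2438 at 16 weeks and 1858, 2039 and 2039.6 at 18 weeks. No treated array overlapped the normal arrays, and the 16 week arrays lay above all others. The change was 1.11 ± 0.08, 1.40 ± 0.08, 2.36 ± 0.08, 2.84 ± 0.08 and 2.502 ± 0.08 in order of time, and the mean signal at 16 weeks was 7.4 times that of normal liver. With quantile normalization the 5 week value was 0.999 and just missed the threshold. Of 11 T cell markers, which include the defining subunits Cd3d, Cd3e and Cd3g, 2 were called higher at 16 weeks, Cd28 (1.64) and Cd2 (1.11), both near background. This was 18.2% of the 11, close to the 14.3% of all probe sets called higher at that time. The list median was 0.76 at 16 weeks, against 0.19 for all probe sets. At an unadjusted limma p under 0.05, 10 of the 11 were higher and 0 lower at 16 weeks. The summed signal of the 11 ranged over 1563 to 1786 in normal liver, 1646 to 1703 at 5 weeks, 1669 to 1774 at 8 weeks, 1969 to 2238 at 12 weeks, 2576 to 2833 at 16 weeks and 2049 to 2225 at 18 weeks. The part of T cells in the ligand changes was not tested.

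Cxcl13 (1398390_at), which draws B cells through Cxcr5, was highest at 8 weeks. Its signals were 369, 401 and 351 in normal liver, 369, 349 and 332 at 5 weeks, 802, 696 and 735 at 8 weeks, 545, 559 and 551 at 12 weeks, 352, 354 and 386 at 16 weeks and 271, 339 and 293 at 18 weeks. The 8 week arrays lay above all others and the 12 week arrays next, while the normal, 5 week and 16 week arrays overlapped. Against normal liver the 8 week value of 0.96 ± 0.09 had an adjusted p of 3.17e-08 but missed the fold threshold. Cxcr5 (1369911_at) was not called, with signals of 48.9 to 188. Cxcl14, a ligand of epithelial tissues with no settled signalling receptor, was not called at either probe set, though 1388485_at averaged 245 ± 22.9 at 12 weeks and 118 ± 6 in normal liver (SD, n = 3; change 0.96 ± 0.15, adjusted p = 2.78e-05). Its other probe set, 1396129_at, ranged over 15.2 to 174, and its value furthest from 0 was -1.01 ± 0.38 at 5 weeks (adjusted p = 0.0512).

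Cxcl12, which retains progenitor and immune cells in tissue through Cxcr4 and is made by stromal and endothelial cells, had the largest decrease of the 51 probe sets at each time against normal liver. Its 3 probe sets differed in course. The first, 1388583_at, had 11389.7, 11392 and 10741 in normal liver, 7163, 6892 and 6548 at 5 weeks and 6057, 6138 and 5787 at 8 weeks. It had 1542, 1584 and 1509 at 12 weeks, 2337, 2199.7 and 2127 at 16 weeks and 1172, 1123 and 1095 at 18 weeks. No 2 of the 6 groups overlapped, normal liver was highest and 18 weeks lowest. The change was -2.84 ± 0.05, -2.32 ± 0.05 and -3.29 ± 0.05 at 12, 16 and 18 weeks, all called, and -0.70 ± 0.05 and -0.90 ± 0.05 at 5 and 8 weeks, under the fold threshold.

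The probe set 1387655_at was lowest at 8 weeks. Its signals were 2358, 2457 and 2315 in normal liver, 858, 783 and 874 at 5 weeks and 212, 170.3 and 241 at 8 weeks. They were 453, 496 and 519 at 12 weeks, 702, 695 and 666 at 16 weeks and 348, 368 and 407 at 18 weeks. Again no 2 groups overlapped and all treated arrays lay below normal liver. It was called lower at all 5 times, with -1.49 ± 0.09, -3.43 ± 0.09, -2.24 ± 0.09, -1.77 ± 0.09 and -2.62 ± 0.09. The third, 1369633_at, was called at 12 weeks (-1.06 ± 0.05) and 18 weeks (-1.60 ± 0.05), and its 12 week value was -0.85 and not called with quantile normalization. Its means were 5127, 4230.1, 3556, 2449.7, 3797 and 1683 from normal liver to 18 weeks. All 3 probe sets were lower than normal liver at every time, and they were lowest at 18, 8 and 18 weeks in the order given here. The sources used here do not say which part or splice form of the transcript each one reads.

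The RefSeq window of Cxcl12, at chr4:152060531-152060830 on the plus strand of GRCr8, is shown because the gene went against most ligands. It has no match to the NF-kB consensus, and the GC box letters GGGCGG on either strand, in capitals, occur 3 times. GGGCGG lay in 33.3% of the member windows and 33.1% of all.
Cxcl12: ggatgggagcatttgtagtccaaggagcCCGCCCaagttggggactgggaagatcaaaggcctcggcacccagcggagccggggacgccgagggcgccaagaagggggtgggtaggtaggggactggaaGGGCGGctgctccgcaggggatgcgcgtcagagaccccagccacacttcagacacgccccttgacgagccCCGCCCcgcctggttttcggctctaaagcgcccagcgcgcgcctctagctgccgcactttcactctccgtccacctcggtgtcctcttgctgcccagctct

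Its signalling receptor Cxcr4 rose. The probe set 1373661_a_at had signals of 64.02, 54.6 and 31.0 in normal liver, 161, 162 and 167 at 5 weeks and 186, 204 and 222 at 8 weeks. They were 199, 161 and 158 at 12 weeks, 444, 436 and 384 at 16 weeks and 246, 196 and 271 at 18 weeks. The 3 normal arrays lay under the background level and all 15 treated arrays above it. The change was 1.48 ± 0.18, 1.77 ± 0.18, 1.55 ± 0.18, 2.76 ± 0.18 and 1.97 ± 0.18, called at all 5 times. The probe set 1389244_x_at, which may also bind related transcripts, was called from 8 weeks on with 1.43, 1.36, 2.04 and 1.31, of which the 12 week value was 0.98 and not called with centred arrays. The third, 1370097_a_at, was called at 16 weeks alone (1.70 ± 0.16). The scavenging receptor Cxcr7 (1367940_at), now named Ackr3, which takes up Cxcl12, had signals of 161 to 376 and was not called (0.50 ± 0.19 at 16 weeks).

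**Figure D4:**
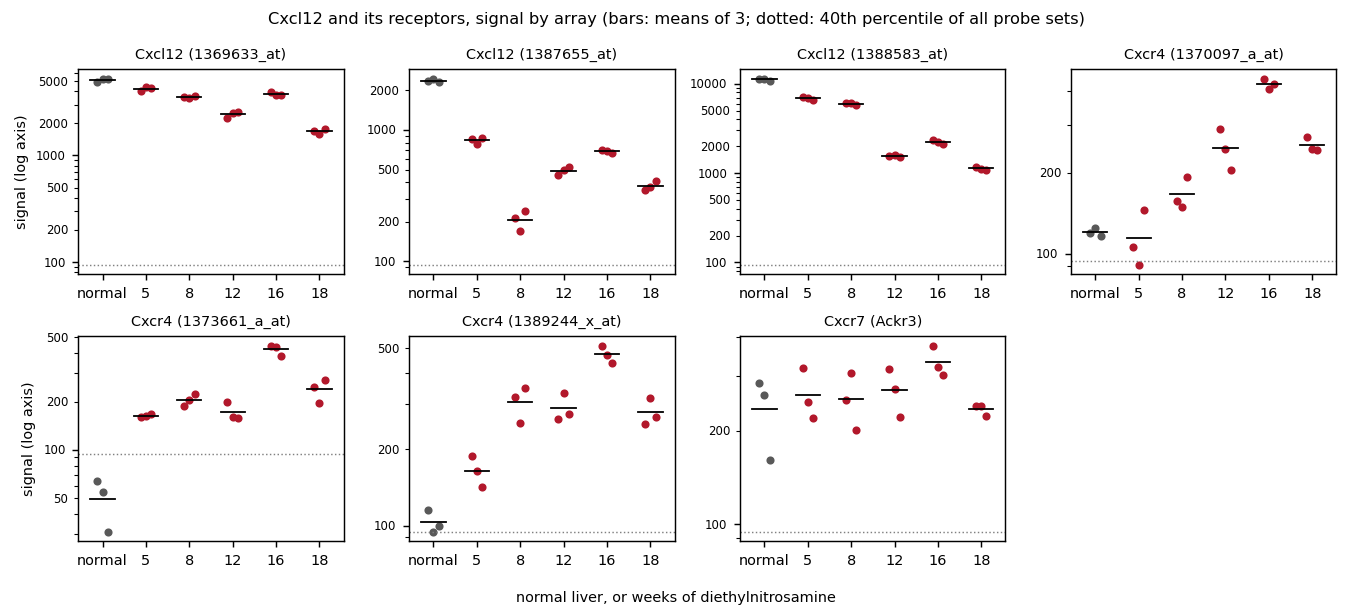
Signal of the 3 probe sets of Cxcl12, the 3 of Cxcr4 and that of Cxcr7 in each array (points, log axis), with group means (bars) and the background level (dotted), in normal liver and after 5 to 18 weeks. All treated Cxcl12 means lie below normal liver, Cxcr4 is highest at 16 weeks at each of its probe sets, and each Cxcr7 group overlaps the next in order of mean.

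Among CC ligands, Ccl2 and Ccl7 bind Ccr2, the receptor of inflammatory monocytes. Ccl2 (1367973_at), the main ligand of Ccr2, had signals of 154, 92.6 and 151 in normal liver, 239.6, 216 and 179.5 at 5 weeks and 239, 321 and 249.7 at 8 weeks. They were 513, 535 and 550.2 at 12 weeks, 1091, 1063 and 1073 at 16 weeks and 465, 576 and 514 at 18 weeks. All treated arrays lay above the normal arrays, and the 16 week arrays above all others. The change was 1.91 ± 0.15, 2.91 ± 0.15 and 1.87 ± 0.15 at 12, 16 and 18 weeks, all called, and the mean at 16 weeks was 8.12 times that of normal liver. Ccl7 (1379935_at), a second ligand of Ccr2, passed the background level at 16 weeks alone, with 112, 123 and 161, against 25.7, 40.9 and 58.2 in normal liver. It was called there (1.39 ± 0.36), and not with centred arrays (0.92) or quantile normalization (0.98).

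The receptor Ccr2 (1387742_at), which brings monocytes out of the marrow, had signals of 64.9, 79.3 and 30.3 in normal liver, 47.5, 58.2 and 69.3 at 5 weeks and 5.12, 6.90 and 12.3 at 8 weeks. They were 92.2, 108 and 108 at 12 weeks, 148, 171 and 136 at 16 weeks and 69.4, 80.9 and 90.4 at 18 weeks. The 8 week arrays lay below all others and the 16 week arrays above all others. It was called lower at 8 weeks (-1.57 ± 0.27) and higher at 16 weeks (1.23 ± 0.27). The 16 week call was lost without normal replicate 3 (0.92), with centred arrays (0.76) and with quantile normalization (0.80), and the 8 week value was -0.74 with 64 added. Of 10 markers of monocytes and recruited macrophages, of which Ccr2 is 1, 6 were called higher at 16 weeks (60%, against 14.3% of all probe sets), led by Spp1 (3.70), Gpnmb (2.67), Cd44 (2.57) and Trem2 (2.52). Their summed signal ranged over 8177 to 8788 in normal liver, 10990 to 11610 at 5 weeks, 13200 to 13920 at 8 weeks, 18820 to 19600 at 12 weeks, 22420 to 23320 at 16 weeks and 19410 to 19990 at 18 weeks. Spp1 and Cd44 are also made by bile duct and other cells. The pan-macrophage gene Cd68, singled out after its values were seen, was not called (0.20 ± 0.06). The part of monocytes in the ligand changes was not tested.

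Ccl20 (1369814_at), which draws Ccr6-bearing dendritic cells and lymphocytes to epithelia, had signals of 9.67, 64.2 and 3.55 in normal liver, 9.11, 20.4 and 13.5 at 5 weeks and 38.8, 16.4 and 44.7 at 8 weeks. They were 129, 107 and 131 at 12 weeks, 297, 269 and 302 at 16 weeks and 131, 159 and 126 at 18 weeks. As for Cxcl5, the arrays up to 8 weeks all lay under the background level and those from 12 weeks on all lay above it. The change was 2.01 ± 0.39, 3.15 ± 0.39 and 2.17 ± 0.39 at 12, 16 and 18 weeks, all called. Ccr6 (1393929_at) was not called against normal liver, and its signals of 15.4 to 151 straddled the background level.

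Ccl19 (1391925_at), which guides dendritic cells and T cells into lymphoid tissue through Ccr7, had signals of 228, 226 and 254 in normal liver, 362, 376 and 450.0 at 5 weeks and 418, 379 and 473 at 8 weeks. They were 648, 644 and 621 at 12 weeks, 1168, 1206 and 1219 at 16 weeks and 878, 906 and 865 at 18 weeks. All treated arrays lay above the normal arrays, and only the 5 and 8 week groups overlapped each other. The change was 0.71 and 0.80 at 5 and 8 weeks, under the fold threshold, and 1.38 ± 0.09, 2.27 ± 0.09 and 1.84 ± 0.09 later, all called. The 12 week value was at the threshold with centred arrays and not called (0.996).

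Ccl11 (1387319_at), an eosinophil attractant acting through Ccr3, was called at 12 weeks (1.42 ± 0.39) and 16 weeks (1.70 ± 0.39). It was near background in every group except 16 weeks, with 67.2, 123 and 128, against 28.1, 5.87 and 34.4 in normal liver. The groups did not overlap, though 1 of the 16 week arrays was itself under the level. With 64 added in place of 16 the change of Ccl11 was 0.77 at 12 weeks and 0.965 at 16 weeks, neither called. Ccl24 (1385309_at), a second ligand of Ccr3, was not called and ranged over 31.7 to 117. Ccr3 (1369808_at) lay under the background level in all arrays, and its call at 16 weeks (1.001 ± 0.39) sat at the threshold. It was lost without any 1 of the 3 normal arrays (adjusted p 0.0738, 0.065 and 0.103 without replicates 1, 2 and 3) or of the 3 arrays at 16 weeks (0.0679, 0.135 and 0.0533).

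The inflammatory ligands Ccl3, Ccl4 and Ccl5, which act in part through Ccr1, were above background in every group and were not called at any time. Ccl3 (1369815_at) ranged over 128 to 311 and Ccl4 (1370832_at) over 154 to 355. Ccl5 (1369983_at), a product of T and NK cells, averaged 880.3 ± 49.5 at 12 weeks and 1597 ± 35.4 in normal liver (SD, n = 3), a value of -0.85 ± 0.07 with an adjusted p of 1.91e-09 that missed the fold threshold. Gzma, a granzyme of cytotoxic cells, was called lower from 8 weeks on (-2.16 at 16 weeks), the sole call among 7 NK and cytotoxic markers at 16 weeks, or 14.3% of them, against 4.01% of all probe sets called lower. The summed signal of the 7 ranged over 2322 to 2415 in normal liver, 2197 to 2274 at 5 weeks, 2045 to 2154 at 8 weeks, 1725 to 1875 at 12 weeks, 2253 to 2345 at 16 weeks and 1886 to 2032 at 18 weeks.

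Their receptor Ccr1 (1370083_at), found on monocytes and neutrophils, had signals of 74.0, 32.3 and 65.0 in normal liver, 137, 98.1 and 77.9 at 5 weeks and 86.0, 96.1 and 83.6 at 8 weeks. They were 121, 143 and 118 at 12 weeks, 248, 252 and 263 at 16 weeks and 157, 153 and 158 at 18 weeks. All treated arrays lay above the normal arrays, and the 16 week arrays lay above all others. It was called at 12 weeks (1.02 ± 0.23), 16 weeks (1.94 ± 0.23) and 18 weeks (1.28 ± 0.23). The 12 week call was lost without normal replicate 2 (0.74), without 12 week replicate 2 (0.94), with centred arrays (0.64) and with quantile normalization (0.65). With 64 added in place of 16 the values at 12 and 18 weeks were 0.68 and 0.88, neither called.

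Ccl6 and Ccl9 in mouse are made by macrophages and act through Ccr1. Ccl6 (1389123_at) had signals of 13308, 13235 and 12294 in normal liver, 11526, 11748 and 11327 at 5 weeks and 9517, 9817 and 9494 at 8 weeks. They were 8266, 8653 and 7936 at 12 weeks, 6797, 6395 and 6019.8 at 16 weeks and 8643, 7913 and 8039 at 18 weeks. All treated arrays lay below the normal arrays and the 16 week arrays below all others. It was called at 16 weeks alone (-1.01 ± 0.05), at the edge of the threshold, with -0.99 without normal replicate 1, -0.998 without normal replicate 2, -0.97 without 16 week replicate 3 and -0.52 with quantile normalization, none of them called. Ccl9 (1392172_at) ranged over 17882 to 24074 and was not called (-0.14 ± 0.04 at 16 weeks), where saturation was not tested. Of 5 Kupffer cell markers measured, 2 were called lower at 16 weeks (40%, against 4.01% of all probe sets), the lectin Clec4f (-2.14 ± 0.04) and Cd5l (-1.001 ± 0.04). Cd5l sat at the fold threshold, and 0 of the 5 were called at 5, 8, 12 or 18 weeks against normal liver. At an unadjusted limma p under 0.05, 3 of the 5 were lower and 1 was higher at 16 weeks. The summed signal of the 5 ranged over 26240 to 27390 in normal liver, 28860 to 29930 at 5 weeks, 24260 to 25470 at 8 weeks, 21900 to 22820 at 12 weeks, 21610 to 22840 at 16 weeks and 22100 to 22290 at 18 weeks. Their part in the Ccl6 values was not tested.

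Ligands of the Ccr4 and Ccr10 axes, which draw helper T cells and skin and mucosal lymphocytes, were not called at any time. Ccl17 (1370118_at) ranged over 24.5 to 226. The Ccl22 probe set 1370619_at ranged over 52.2 to 140.3 and 1370620_at over 5.42 to 63.4. Their receptor Ccr4 (1369555_at) ranged over 7.40 to 68.4, and none of these 4 probe sets was called. Ccl27 (1376850_a_at), above the background level in all 18 arrays, ranged over 111 to 245 and Ccl28 (1369513_at) over 7.03 to 105, also uncalled. Their receptor Ccr10 (1378939_at), near background in every group mean, was called lower at 5, 8, 16 and 18 weeks, with -1.31, -1.16, -1.88 and -1.36. Its signals were 6.76, 14.9 and 13.8 at 16 weeks, against 76.2, 107 and 76.1 in normal liver. The 5 week call was lost without normal replicate 2 (-1.17) or 5 week replicate 1 (-1.16). The 8 week call was lost without normal replicate 2 (-1.02) or 8 week replicates 1 (-0.88) or 3 (-1.01), and the 18 week call without 18 week replicate 1 (-1.01). With 64 added in place of 16 the values at 5, 8, 16 and 18 weeks were -0.75, -0.65, -0.98 and -0.74, none of them called.

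Cx3cl1 (1368200_at), or fractalkine, a membrane-tethered ligand of endothelium and epithelium, had signals of 151, 143 and 176 in normal liver, 99.2, 131 and 130.2 at 5 weeks and 187, 253 and 198 at 8 weeks. They were 329.7, 391 and 352 at 12 weeks, 643, 526 and 579 at 16 weeks and 349, 331 and 314 at 18 weeks. The 5 week arrays lay below normal liver, and the arrays from 8 weeks on above it with the 16 week arrays highest. The change was 1.12 ± 0.14, 1.79 ± 0.14 and 1.01 ± 0.14 at 12, 16 and 18 weeks, all called. With centred arrays the 12 and 18 week values were 0.73 and 0.83 and not called, and with quantile normalization both were 0.80. The 18 week call was also lost without normal replicate 1 (0.99), normal replicate 2 (0.95) or 18 week replicate 1 (0.98). Its receptor Cx3cr1 (1369527_at), found on patrolling monocytes and macrophages, ranged over 81.2 to 251 and was not called (0.79 ± 0.18 at 16 weeks, adjusted p = 0.00126).

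Xcl1 (1387831_at), a product of activated T and NK cells that draws cross-presenting dendritic cells, was lower at every time. Its signals were 166, 238 and 195 in normal liver, 109, 33.4 and 105 at 5 weeks and 47.5, 54.9 and 36.0 at 8 weeks. They were 77.0, 42.3 and 90.0 at 12 weeks, 109, 94.0 and 72.4 at 16 weeks and 25.8, 65.7 and 14.2 at 18 weeks. No treated array reached the 3 normal arrays. The change was -1.24 ± 0.38, -1.79 ± 0.38, -1.36 ± 0.38, -1.003 ± 0.38 and -2.19 ± 0.38, called at all 5 times although every treated group mean lay near background. The 5 week call was lost without normal replicate 2 (-1.11) or 5 week replicate 2 (-0.80). That at 16 weeks was lost without normal replicates 2 (-0.88) or 3 (-1.01) or 16 week replicates 2 (-1.03) or 3 (-0.87). With 64 added in place of 16 the values at 5, 12 and 16 weeks were -0.89, -0.99 and -0.76, none of them called.

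Steps between neighbouring times share no normal arrays. Between 8 and 5 weeks 2 of the 51 were called higher and 4 lower (3.92% and 7.84%), against 1% and 1.69% of all probe sets. Between 12 and 8 weeks 8 were higher and 1 lower (15.7% and 1.96%), against 6.54% and 1.45% of all. Between 16 and 12 weeks 3 were higher and 1 lower (5.88% and 1.96%), against 0.976% and 0.496% of all. Between 18 and 16 weeks 0 were higher and 7 lower (0% and 13.7%), against 0.219% and 3.47% of all. In either direction these were 6, 9, 4 and 7 of the 51, against 2.7%, 7.99%, 1.47% and 3.69% of all probe sets. In the last step the 3 later arrays lay below the 3 earlier ones for 33 of the 51 (64.7%) and for 25.1% of all probe sets. They lay above them for 2 (3.92%) and for 12.9% of all. At an unadjusted limma p under 0.05, 3 were higher and 30 lower in that step as deposited, and 3 and 17 with centred arrays. No share of all probe sets was taken at that p.

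Ccr2, Cxcl1 and 1 probe set of Cxcl12 dipped at 8 weeks and were higher again at 12 weeks. At 8 weeks against 5 weeks Ccr2 had a change of -1.63 ± 0.27, Cxcl1 of -1.56 ± 0.10 and Cxcl12 at 1387655_at of -1.94 ± 0.09. At 12 weeks against 8 weeks the same 3 probe sets had changes of 2.31 ± 0.27, 1.21 ± 0.10 and 1.19 ± 0.09. With centred arrays the 12 week step was 0.94 for Cxcl1 and 0.91 for Cxcl12, and neither was called. Control probes for the 3′ and 5′ ends of Gapdh gave a ratio of 2.12 ± 0.0521 at 8 weeks and 1.12 ± 0.0599 in normal liver (SD, n = 3), and those of actin 4.48 ± 0.203 and 2.36 ± 0.305, the highest of the 6 groups, a ratio that is higher in RNA that is more degraded or less completely copied. The part of RNA quality in the 8 week dips was not tested. Leaving out the 8 week arrays keeps the changes at the other times and alters only the shared spread. The counts called there then stayed within 1.5 times their values, which says nothing about the 8 week values.

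Cxcl5 (2.65 ± 0.32) and Ccl20 (1.54 ± 0.39) also rose between 8 and 12 weeks. Cxcl12 at 1388583_at fell in the same step (-1.94 ± 0.05). The weak ligands Ccl11 (1.17 ± 0.39) and Ccl7 (1.02 ± 0.36) were also called, and neither was with centred arrays (0.90 and 0.75). Without 8 week replicate 1 they had adjusted p values of 0.146 and 0.17, and without 12 week replicate 1 of 0.0695 and 0.0701. The call of Ccl11 was also lost without 12 week replicate 2 (adjusted p = 0.0887), and that of Ccl7 without 8 week replicate 2 (0.0817) or 12 week replicate 3 (0.151). Between 16 and 12 weeks Cxcl3 at 1370634_x_at (2.38 ± 0.41), Cxcl5 (1.58 ± 0.32) and Cxcr4 at 1373661_a_at (1.22 ± 0.18) rose further.

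Between 18 and 16 weeks Ccl2 (-1.04 ± 0.15), Ccr6 (-1.12 ± 0.36), Cxcl12 at 1369633_at (-1.17 ± 0.05), Cxcl2 (-1.25 ± 0.40), Cxcl3 at 1370634_x_at (-1.34 ± 0.41), Cxcl5 (-1.01 ± 0.32) and Xcl1 (-1.18 ± 0.38) were called lower. With centred arrays the median of the 51 was -0.27 in place of -0.55 and limma called 0 of the 51, with 3 higher and 17 lower at an unadjusted p under 0.05. Over all 31042 probe sets limma called 257 higher and 430 lower with centred arrays. With quantile normalization 3 of the 51 were called, all lower, against 139 higher and 452 lower over all probe sets. The number called was 1 without 18 week replicate 1, 2 without 16 week replicate 2 and 4 without 16 week replicate 3. The call of Cxcl5 was lost on leaving out any 1 of the 6 arrays (adjusted p up to 0.0915, without 18 week replicate 1), and that of Ccl2 only without 18 week replicate 1 (-0.96). Signals of Ccl2 at 18 weeks were 465, 576 and 514, against 1091, 1063 and 1073 at 16 weeks, with no overlap.

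Genes that carry or meet the chemokine signal were read in the same fit. Of 18 genes measured for signalling behind chemokine receptors, 1, 2, 5, 6 and 5 were called higher from 5 to 18 weeks in order of time. These were 5.56%, 11.1%, 27.8%, 33.3% and 27.8% of the list, against 4.51%, 6.39%, 11.1%, 14.3% and 7.84% of all probe sets. At 16 weeks limma called 0 lower, or 1 at an unadjusted p under 0.05, and the list median was 0.51, against 0.19 for all probe sets. They were led by Ptk2b, a kinase activated by calcium (2.78 at 16 weeks), Rgs1 (2.00) and Rgs2 (1.84), which shorten G protein signals, and the inhibitory G protein subunit Gnai2 (1.62). Of 25 cytokines and NF-kB and interferon factors that induce chemokines, 4 were higher and 3 lower at 16 weeks, with a median of 0.44. These were 16% and 12% of the list, against 14.3% and 4.01% of all probe sets, so that the share higher was near that of all. Those higher were the NF-kB subunits Nfkb2 (2.25) and Nfkb1 (1.12) and the cytokines Il6 (1.10) and Ltb (1.01). Those lower were the cytokine Il1a (-1.93), the interleukin 1 receptor Il1r1 (-1.76) and Cd14 (-1.47), which presents endotoxin to Tlr4.

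Of the 25 cytokines and factors, 0, 2, 1 and 1 were higher and 1, 2, 3 and 3 lower at 5, 8, 12 and 18 weeks. The shares higher were 0%, 8%, 4% and 4%, against 4.51%, 6.39%, 11.1% and 7.84% of all probe sets. The shares lower were 4%, 8%, 12% and 12%, against 2.68%, 4.65%, 3.24% and 3.92% of all.

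Of 15 genes of leukocyte adhesion, 1, 2, 3, 4 and 4 were called higher in order of time, with a median of 0.78 at 16 weeks. These were 6.67%, 13.3%, 20%, 26.7% and 26.7% of the list, beside the shares of all probe sets given for the signalling genes. At 16 weeks limma called 0 lower, or 1 at an unadjusted p under 0.05, and those higher were Cd44 (2.57), the endothelial selectin Sele (2.33), Jam3 (2.00) and Vcam1 (1.65). Of 13 genes that cleave chemokines or hold them in matrix, 3 were higher at 16 weeks and limma called 0 lower, or 2 at an unadjusted p under 0.05, with a median of 0.28. The 3 were 23.1% of the list, against 14.3% of all probe sets. Those higher were the macrophage elastase Mmp12 (3.86), the proteoglycan Vcan (2.42) and Mmp2 (2.26), a protease that can inactivate Cxcl12. Scavenging receptors beside Cxcr7 were represented by Ccrl2, called higher at 16 weeks (1.46 ± 0.36), and Ackr2, not called (0.19 ± 0.32).

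Markers of other liver cells were read over the same weeks, where 14.3% of all probe sets were called higher and 4.01% lower at 16 weeks. Of 8 bile duct and progenitor markers, 7 were higher at 12, 16 and 18 weeks, led by Cd24 (4.49 at 16 weeks), Cldn7 (4.26), Krt19 (4.15) and Krt7 (3.95). Their summed signal ranged over 1709 to 1810 in normal liver, 2426 to 2589 at 5 weeks, 2799 to 2991 at 8 weeks, 10770 to 11150 at 12 weeks, 14610 to 15940 at 16 weeks and 11170 to 11560 at 18 weeks. Of 10 stellate cell and fibroblast markers, 8 were higher at 16 weeks, led by Col1a1 (3.87), with summed signals of 6562 to 6835 in normal liver, 12580 to 12750 at 5 weeks, 13550 to 14320 at 8 weeks, 21200 to 21550 at 12 weeks, 23920 to 24810 at 16 weeks and 14960 to 15270 at 18 weeks. Of 8 mast cell markers, 7 were higher at 12 and 16 weeks, led by Mcpt2 (5.57 at 16 weeks), with summed signals of 502 to 572 in normal liver, 801 to 1196 at 5 weeks, 1335 to 1498 at 8 weeks, 3660 to 3862 at 12 weeks, 4510 to 4863 at 16 weeks and 1737 to 1873 at 18 weeks. No marker of any list had a mean signal of 0 in any group. In normal liver 4 of the 8 bile duct markers, 6 of the 8 mast cell markers and 1 of the 10 stellate cell markers were near background, and at 16 weeks 1, 1 and 0 were.

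Of 7 endothelial markers, Vwf was higher (1.64) and Kdr (-1.36) and Stab2 (-1.26) were lower at 16 weeks, with sums of 8802 to 9508 in normal liver, 10280 to 11030 at 5 weeks, 9767 to 10750 at 8 weeks, 8040 to 8122 at 12 weeks, 6582 to 6861 at 16 weeks and 6339 to 6954 at 18 weeks. Of 5 B and plasma cell markers, Jchain was higher at 16 weeks (2.11), with sums of 2401 to 2553 in normal liver, 4641 to 4890 at 5 weeks, 2528 to 2706 at 8 weeks, 3855 to 3975 at 12 weeks, 8441 to 8471 at 16 weeks and 3667 to 4291 at 18 weeks. Of 4 dendritic cell markers, Flt3 was higher (1.74) though near background, with sums of 646 to 712 in normal liver, 640 to 791 at 5 weeks, 941 to 1091 at 8 weeks, 1034 to 1280 at 12 weeks, 953 to 1096 at 16 weeks and 972 to 1031 at 18 weeks. All 10 hepatocyte markers were above background in every group, with sums of 270900 to 310000 in normal liver, 236700 to 248600 at 5 weeks, 187100 to 213700 at 8 weeks, 212200 to 229900 at 12 weeks, 192800 to 205200 at 16 weeks and 209500 to 226000 at 18 weeks, and Hnf4a was called lower at 16 weeks (-1.26). The part of any of these cells in the chemokine changes was not tested.

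**Figure D5:**
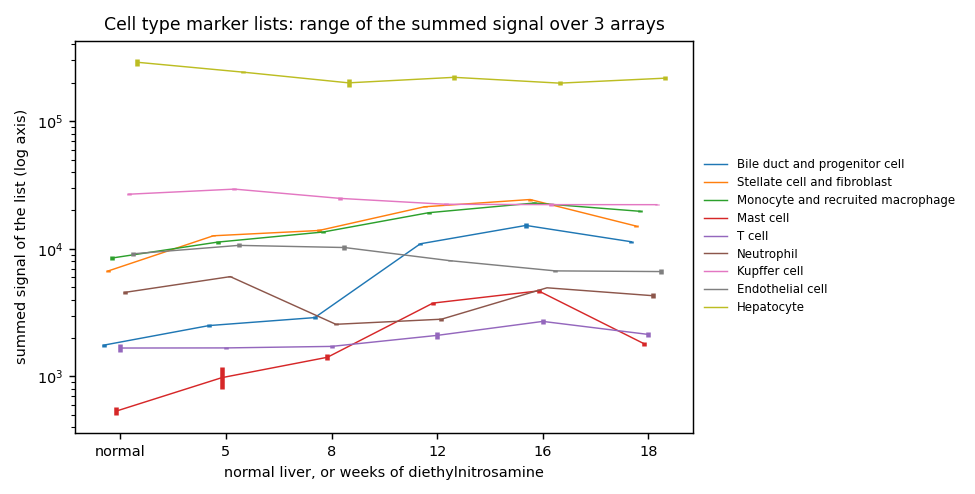
Range over the 3 arrays of the summed signal of each cell type's marker list (vertical bars, log axis; groups are slightly offset for legibility), joined by lines through the middle of each range, in normal liver and after 5 to 18 weeks. The bile duct, stellate cell, monocyte and mast cell sums are highest at 16 weeks. Sums of different lists come from different probes, so each line is read only against itself.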

How the data were processed

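Liver RNA was hybridised to 18 Affymetrix Rat Genome 230 2.0 arrays, 5 ug of RNA each per the labels' protocols, and scanned with GCOS 2.0 per the submitters' processing notes. The values used are the deposited signals, a linear intensity per probe set as the authors' scanner software gave it; the scaling target is not given in the sources used here. Of the deposited workbook's signals, those of the 15 treated arrays matched the value table, and those of the 3 normal arrays held the same values in another row order and were not used. The authors' deposited log2 ratios served only as an alternative. No column belonged to another series (0 columns left out).

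Signals were used without rescaling as log2(signal + 16). All 31042 probe sets without controls were fitted with limma 3.58.1 in R 4.3.3 (lmFit, eBayes with a variance trend, 6 groups), with no filter, for 5 contrasts with normal liver and 4 steps, two-sided, with Benjamini-Hochberg adjustment over all probe sets. A call needed an adjusted p under 0.05 and a fold of 2. The number of arrays limits the precision. On simulated data over 31042 probe sets, for 16 weeks against normal liver, 81 of 100 changes of 1.5 and 95 of 100 of 2.5 (log2) were recovered. There were 9 false calls. The changed probe sets were drawn at random and given normal noise of the spread between arrays. These rates are therefore not those of the chemokine members.

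Members were chosen by symbol and the gene lists by textbook knowledge, both with earlier results of these data known. One member counted among the 51 probe sets is not reported here by name. Named were the other members, their receptors or ligands, and up to 4 genes of a list with the largest called change, plus those called against its direction. Lists used the brightest probe set of a gene. Symbols were matched to RefSeq, where 38 of 40 were current. Python 3.11.15, pandas 2.3.3 and numpy 2.4.6 made the summaries. Alternatives covered the added constant, scaling, filter, fold threshold, trend, groups fitted, replicate block and each array left out.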

Additional observations from a re-analysis of the deposited data

Results flagged for a closer look

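The values below are changes between neighbouring times on the log2 scale, each from a test of the step itself, and they mark probe sets whose difference from normal liver changed from one time to the next. No explanation was weighed.

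From 5 to 8 weeks the step was -1.63 for Ccr2, -1.56 for Cxcl1, -1.94 for Cxcl12 (1387655_at) and -1.45 for Cxcl9 (1382454_at), while Cxcl13 gave 1.05 and Cxcl3 (1388032_a_at) 1.61. Without 8 week replicate 1 the Cxcl13 step fell just under the fold threshold.

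From 8 to 12 weeks the step was 2.31 for Ccr2, 1.21 for Cxcl1, 1.19 for Cxcl12 (1387655_at), 1.17 for Ccl11, 1.54 for Ccl20, 1.02 for Ccl7 and 2.65 for Cxcl5. It was -1.94 for Cxcl12 (1388583_at), so that 2 probe sets of this gene moved in opposite directions over the same weeks.

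From 12 to 16 weeks the step was 2.38 for Cxcl3 (1370634_x_at), 1.58 for Cxcl5 and 1.22 for Cxcr4 (1373661_a_at), and -1.54 for Ccr10. The Ccr10 step was not called without 12 week replicate 2 (-1.30) or 16 week replicate 1 (-1.41).

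From 16 to 18 weeks the step was -1.04 for Ccl2, -1.12 for Ccr6, -1.17 for Cxcl12 (1369633_at), -1.25 for Cxcl2, -1.34 for Cxcl3 (1370634_x_at), -1.01 for Cxcl5 and -1.18 for Xcl1. None of these last 7 was called with centred arrays.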

How the results depend on the processing

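The 83 called values of single probe sets against normal liver kept their direction under every alternative run, and of 2351 alternative values 2246 kept the call and 105 lost it. A call needs a log2 change of at least 1, so most of these runs could hardly turn a sign. This pooled count includes runs that could hardly lose a call, such as no fold threshold or an array left out of a group not compared. Of the 83, 25 lost the call with 64 added, 16 with centring, 12 with quantile normalization and 12 without normal replicate 2. The authors' deposited log2 ratios come from these same arrays and were an alternative chosen after seeing the data. They gave all 83 the same sign, with 37 within and 46 beyond the spread between arrays. Without the fold threshold the counts called were 19 at 5 weeks, 26 at 8, 30 at 12 and 29 at 18 weeks, 19 between 8 and 5 weeks, 24 between 12 and 8, 22 between 16 and 12 and 28 between 18 and 16 weeks. With 1 probe set per gene they were 4 at 5 weeks, 3 between 8 and 5 weeks and 2 between 16 and 12 weeks, with fewer probe sets entering. With 64 added they were 7 at 8 weeks, 3 between 8 and 5 weeks and 2 between 18 and 16 weeks, and with 1 added 4 in the last. The filter on mean signal, which removes near-background probe sets, left 17 at 16 weeks and 4 between 18 and 16 weeks. That last step had 3 calls with quantile normalization and 0 with centring. Leaving out each array in turn gave 5 to 9 calls at 5 weeks, 10 to 14 at 8, 18 to 20 at 12, 23 to 27 at 16 and 17 to 21 at 18 weeks, 5 to 7 between 8 and 5 weeks, 8 to 12 between 12 and 8, 3 to 5 between 16 and 12 and 1 to 8 between 18 and 16 weeks. Over all probe sets 8413 were called at 1 time or more, 8267 to 8560 with an array left out, 4626 with 64 added, 5426 with the filter and 19406 without the fold threshold. Over the gene lists 74 were called at 1 time or more, 70 to 80 with an array left out and 151 without the fold threshold. The 5 probe sets under the background level throughout were 1 at the 30th and 11 at the 50th percentile. Whether the numbers of the arrays pair them was not settled. Same-numbered arrays of different groups deviated together with a mean correlation of 0.0394 (45 pairs), against -0.0197 for other numbers (90 pairs). Of 18 arrays, 9 correlated best with an array of their own number. The main fit used no pairing. With the replicate block 8 of the 51 were called at 5 weeks in place of 7, with the counts of the 51 at the other times and steps as before, and 8482 of all probe sets and 75 list genes were called at 1 time or more. Beyond what an alternative's own construction shows, the cause of these differences was not tested. Probe sets near background carry the least certain changes.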

Other observations

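Several chemokine genes carry older symbols on this array and fall outside the rule, and the following were singled out after their values were seen. Ccl21b (1378015_at), matched in RefSeq to Ccl21, a ligand of Ccr7 made by lymphatic vessels and lymphoid stroma, rose at all 5 times, as did Ccl19, its partner ligand, from 12 weeks on. Its mean signals were 280.4, 921, 902, 1828, 3567 and 2332 from normal liver to 18 weeks (n = 3 each). The changes were 1.67 ± 0.09, 1.64 ± 0.09, 2.65 ± 0.09, 3.61 ± 0.09 and 2.99 ± 0.09, all called with limma. Ccrl2 (1398591_at), a receptor that binds chemerin without signalling, was called higher at 12, 16 and 18 weeks with 1.39, 1.46 and 1.12.

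Of 9 measured genes in the list of chemoattractants and receptors under other names, 2 were called higher and 3 lower at 16 weeks. These were 22.2% and 33.3% of the list, against 14.3% and 4.01% of all probe sets. Those higher were the chemerin receptor Cmklr1 at 1379039_at (1.48 ± 0.41) and the platelet chemokine Pf4 (1.06 ± 0.08). Those lower were Ppbp (-1.29 ± 0.37), also a platelet product, Rarres2 (-1.12 ± 0.04), which encodes chemerin itself, and Xcl1. Xcl1 is also a member of the rule and is already counted among the 51 probe sets. A second Cmklr1 probe set, 1398292_at, was not called at 16 weeks (0.49 ± 0.40) and was called lower at 8 weeks (-1.40 ± 0.40).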
